A study of Homo sapiens with 2 samples.

Results

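Oxidative phosphorylation was described through the genes whose symbols begin with the stems used for its subunits: NDUFA, NDUFB, NDUFC, NDUFS and NDUFV for complex I, SDHA to SDHD for complex II, UQCR for complex III, COX4 to COX8 for complex IV, ATP5 for the ATP synthase, and MT- for the genes of mitochondrial DNA. This choice by name took in 114 of the 36601 genes in the files, after nuclear symbols of pseudogenes and antisense RNAs were dropped. By function they were 83 nuclear subunits, 13 mitochondrially encoded subunits, 12 assembly factors and 6 related genes that are no standard subunit. Not every subunit is named by these stems, and those outside them, such as CYC1 (cytochrome c1 of complex III), were counted in separate lists.

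The cells were wild-type HT1080, an established human fibrosarcoma line, grown as spheroids of 2000 cells with about 50 spheroids per sample in 500 µl of collagen and left to invade for 72 h. A control sample was compared with a sample kept in 2 µg/ml of 4B4, an antibody that blocks the β1 integrin subunit, a receptor chain that binds collagen. The labels name no other antibody for the control. Each group was 1 library of pooled spheroids of 1 cell line, so no comparison has a replicate check, no test or p-value was computed, and every interval given covers counting error only.

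Oxidative phosphorylation makes most of the ATP of many cells in the inner mitochondrial membrane. Complexes I and II pass electrons from NADH and succinate to coenzyme Q, complex III passes them to cytochrome c, and complex IV passes them to oxygen. Complexes I, III and IV pump protons, and the ATP synthase, also called complex V, uses their return flow. All complexes but complex II mix subunits from nuclear genes, made in the cytosol and imported, with subunits translated inside the organelle from mitochondrial mRNAs.

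The libraries held 3402 control cells and 1385 4B4 cells after barcodes with fewer than 1000 detected genes or more than 20% mitochondrially encoded UMIs were left out. A UMI marks 1 captured mRNA molecule, and levels are given as UMIs per 1000000 UMIs of the library (UPM). Because the kit counts a molecule once, at its 3′ end, these levels need no division by transcript length. Depth differed, with a median of 32914 UMIs per control cell and 68556 per 4B4 cell. All 7 HT1080 marker genes were at 5 UPM or more in both libraries, and at most 1 gene of each list for epithelial, leukocyte, endothelial, erythroid and muscle cells was. Cell cycle genes were lower in the 4B4 library, with 38 of 41 S phase genes and 51 of 53 G2M genes lower by at least 1.2-fold.

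The mitochondrial genes are packed so tightly that some share bases, which bears on how their UMIs can be told apart. On the GRCh38 mitochondrial chromosome, 12 of the 13 protein genes lie on the plus strand and MT-ND6 alone lies on the minus strand, at chrM:14149-14673. MT-ATP8 and MT-ATP6 overlap by 46 bases, MT-ND4L and MT-ND4 by 7 bases, and MT-ATP6 and MT-CO3 by 1 base. Both overlaps of more than 1 base are shown here, read from the plus strand of the GENCODE transcripts, with the shared bases in capitals.
MT-ATP8 and MT-ATP6, chrM:8515-8584, plus strand: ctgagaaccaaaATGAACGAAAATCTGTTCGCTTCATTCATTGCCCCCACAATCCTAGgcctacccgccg
MT-ND4L and MT-ND4, chrM:10736-10790, plus strand: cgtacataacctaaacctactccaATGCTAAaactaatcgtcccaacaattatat
In each pair the capitals begin with ATG, the start codon of the downstream gene, and end in the stop codon of the upstream gene. Both pairs are known to be read from a shared mRNA whose 3′ end lies in the downstream gene. Counts of MT-ATP8 and MT-ND4L are therefore uncertain as levels of their own. Of the 13 coding regions, 6 end within a codon, 5 of them in a lone T and MT-ND1 in TA, where the stop codon is completed by the poly(A) tail.

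Nuclear and mitochondrially encoded subunits differed between the libraries in opposite directions. The 83 nuclear subunits together took 26250 UPM in the control (counting interval 26222 to 26278) and 31678 UPM in the 4B4 library (31646 to 31711), which is 1.21-fold higher in 4B4 (log2 ratio 0.27). The 13 mitochondrially encoded genes took 89693 UPM in the control and 65511 UPM in the 4B4 library, 1.37-fold lower in 4B4 (log2 ratio -0.45). For every nuclear subunit UMI there were 3.42 mitochondrially encoded UMIs in the control and 2.07 in 4B4. In cells of 20000 to 60000 UMIs, where depths are closer, the log2 ratio was 0.17 for the nuclear sum and -0.11 for the mitochondrially encoded sum. Among cells with up to 5% mitochondrially encoded UMIs, the log2 ratio of the nuclear sum was 0.38. It was 0.14 in cells of 5 to 10%, 0.10 in cells of 10 to 15%, and -0.60 in the 127 control and 35 4B4 cells of 15 to 20%. Cells with up to 5% made up 7.73% of the control cells and 20.9% of the 4B4 cells. How far depth and cell make-up enter these sums was not tested beyond those values and the strata given later.

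Gene by gene, 105 of the 114 reached 5 UPM in either library. A gene was counted as higher or lower when its ratio was at least 1.2-fold with its counting interval on that side of 1. Of all 11359 genes at that floor, 12.6% were higher and 16.6% lower in 4B4. Among the 92 nuclear genes of the set that passed, 31 were higher, 1 was lower and 60 were neither. With each cell weighing the same, 16 genes of the set were higher. Of the 13 mitochondrially encoded genes, 0 were higher and 11 were lower, and MT-CO1 and MT-ND4L missed the 1.2-fold bound. The median log2 ratio was 0.21 over the 77 nuclear subunits that passed, -0.44 over the mitochondrially encoded genes and -0.0089 over all genes at the floor. At 1.5-fold, which 2.1% of all genes passed as higher and 5.82% as lower, 3 genes of the set were higher (NDUFA3, UQCRQ and UQCR11) and 4 were lower (MT-ND6, MT-ND1, MT-ATP6 and MT-CO3). These 1.5-fold calls were not stable: 1 gene was higher and 0 were lower in cells of 20000 to 60000 UMIs, and 0 were higher and 1 was lower with each cell weighing the same.

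**Figure D1:**
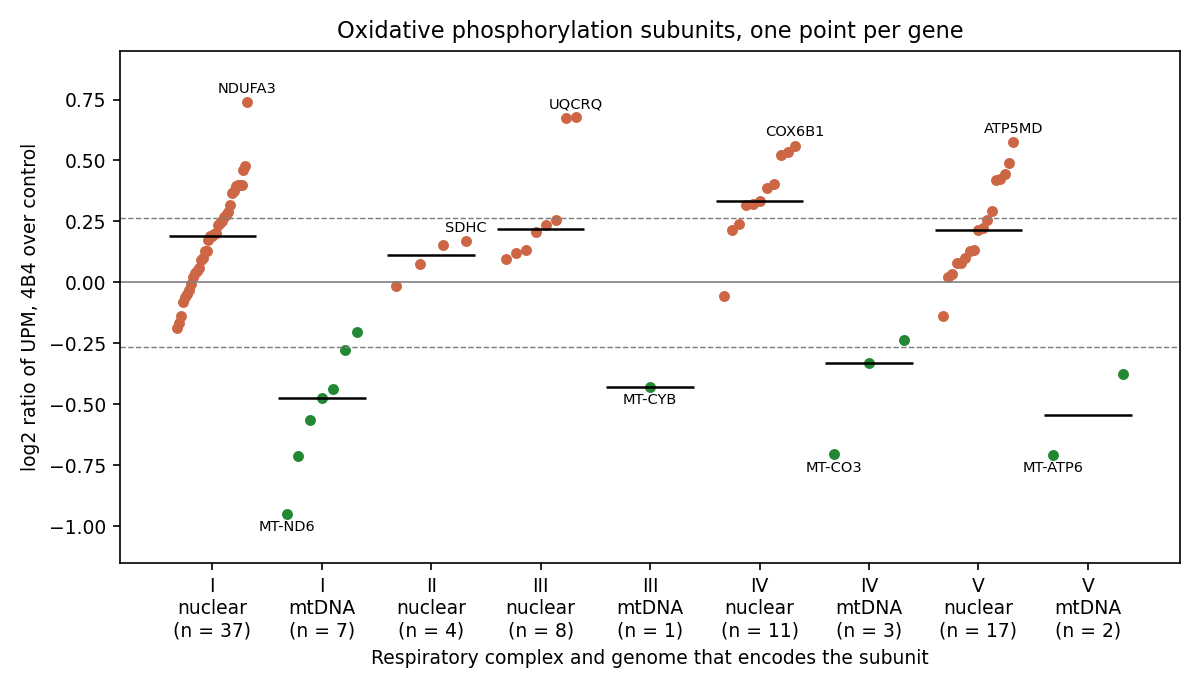
Each point is the log2 ratio of UPM (4B4 over control) of 1 subunit gene at 5 UPM or more, grouped on the x axis by complex and by the genome that encodes it; bars are medians and dashed lines mark 1.2-fold. All 13 mitochondrially encoded genes lie below 0, and 66 of the 77 nuclear subunits lie above it.

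Complex I, the NADH dehydrogenase, showed the opposite directions within a single enzyme. Its 37 nuclear subunits summed to 9032 UPM in the control and 10362 UPM in 4B4 (log2 ratio 0.20), and its 7 mitochondrially encoded subunits to 16508 and 11696 UPM (log2 ratio -0.50). By gene, 13 of the 37 nuclear subunits were higher, 0 were lower, and the median log2 ratio was 0.19. The 7 nuclear core subunits, which carry the redox centres, had a median of 0.10 with 1 higher. The 30 accessory subunits had a median of 0.22 with 12 higher.

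NDUFA3, a small accessory subunit (GENCODE release 29, chr19:54102728-54109257), had the largest nuclear ratio of the set, with 90.1 UPM in the control (88.5 to 91.8) and 150 UPM in 4B4 (148 to 153), a log2 ratio of 0.74. Accessory subunit NDUFB1 was at 174 UPM in the control and 243 UPM in 4B4 (log2 ratio 0.48). For NDUFA1, an accessory subunit encoded on the X chromosome, the levels were 258 and 355 UPM (log2 ratio 0.46). All 3 were higher in 4B4 with separate counting intervals. Among the nuclear subunits with the highest levels, NDUFA13, an accessory subunit of the membrane arm, was at 635 and 764 UPM (log2 ratio 0.27). Accessory subunit NDUFB4 was at 570 and 711 UPM (log2 ratio 0.32). With each cell weighing the same, NDUFA13 was at 0.17 and NDUFB4 at 0.16 on the log2 scale, both under 1.2-fold. NDUFV2, a core subunit that holds an iron-sulfur cluster, was at 689 and 738 UPM (log2 ratio 0.10), below the 1.2-fold bound. The lowest ratio among its nuclear subunits, looked up after the values were seen, was that of NDUFA10, an accessory subunit of the membrane arm, at 66.9 and 58.8 UPM (log2 ratio -0.19), and this missed the bound as well. NDUFS7, a core subunit next to the coenzyme Q site, was the core subunit that passed, at 122 and 158 UPM (log2 ratio 0.37). It was named after its value was seen, and with each cell weighing the same its log2 ratio was 0.22, under 1.2-fold.

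The 7 mitochondrially encoded complex I genes all had ratios below 0, of unequal size. MT-ND6, the light-strand gene, was at 201 UPM in the control (199 to 204) and 104 UPM in 4B4 (103 to 106), a log2 ratio of -0.95, the lowest of the set over all kept cells. In G1 cells alone it was -0.82, beside -0.83 for MT-ATP6. MT-ND1, which forms part of the coenzyme Q channel, was at 3341 and 2041 UPM (log2 ratio -0.71). Proton-pumping subunits followed at smaller ratios: MT-ND4 was at 5839 and 3952 UPM (log2 ratio -0.56). MT-ND2 was at 1912 and 1375 UPM (log2 ratio -0.48), and MT-ND5 at 966 and 713 UPM (log2 ratio -0.44). These 5 genes were each lower in the 4B4 library by at least 1.2-fold over all kept cells. In cells of 20000 to 60000 UMIs MT-ND6 (-0.47), MT-ND1 (-0.37) and MT-ND4 (-0.32) still passed 1.2-fold, and MT-ND2 (-0.17) and MT-ND5 (-0.05) did not. MT-ND3, a small membrane subunit, was at 4081 and 3365 UPM (log2 ratio -0.28), and MT-ND4L, which shares its mRNA with MT-ND4, at 168 and 145 UPM (log2 ratio -0.20). Both of these small ratios turned positive in that window of depth, at 0.10 for MT-ND3 and 0.37 for MT-ND4L.

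Complex II, the succinate dehydrogenase shared with the tricarboxylic acid cycle, has no mitochondrially encoded subunit, and over all kept cells its nuclear sum differed least among the complexes. Its log2 ratio was 0.18 in cells of 20000 to 60000 UMIs, above those of the complex I (0.12) and complex V (0.17) nuclear sums. Its 4 subunits summed to 350.5 UPM in the control and 376.2 UPM in 4B4 (log2 ratio 0.10), and 0 of 4 passed the 1.2-fold bound. SDHA, the flavoprotein that oxidizes succinate, was at 65.1 and 64.5 UPM (log2 ratio -0.01). The iron-sulfur subunit SDHB was at 95.7 and 106 UPM (log2 ratio 0.15). The membrane anchors SDHC and SDHD had log2 ratios of 0.17, from 77.6 and 87.2 UPM, and 0.08, from 112 and 118 UPM. The counting intervals of the libraries overlapped for SDHA (63.7 to 66.6 and 63.0 to 66.0 UPM) and were apart for SDHB (94.0 to 97.4 and 104 to 108 UPM).

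Complex III, the cytochrome bc1 complex, held 2 of the 3 nuclear genes that passed 1.5-fold. Its 8 nuclear subunits summed to 3602 and 4548 UPM (log2 ratio 0.34), all 8 had ratios above 0 and 2 passed 1.2-fold. UQCRQ, a small subunit (chr5:132866560-132868031), was at 533 UPM in the control (529 to 537) and 852 UPM in 4B4 (847 to 857), a log2 ratio of 0.68. UQCR11, the smallest subunit (chr19:1597172-1605490), was at 531 (527 to 535) and 846 UPM (841 to 851), a log2 ratio of 0.67. Both small subunits thus stood at nearly the same level as each other in each library. UQCRH, the hinge subunit that helps cytochrome c dock, had the highest level among nuclear subunits in both libraries, at 1330 and 1459 UPM (log2 ratio 0.13). UQCRC1, a core subunit on the matrix side, was at 120 and 143 UPM (log2 ratio 0.26), just under the bound. MT-CYB, cytochrome b and the only subunit of the complex encoded in the organelle, was at 10333 and 7671 UPM (log2 ratio -0.43), but its log2 ratio was -0.09 in cells of 20000 to 60000 UMIs, short of 1.2-fold. UQCRHL, a near copy of UQCRH, was at 3.58 and 5.02 UPM; it reached the floor in 4B4 alone, and reads shared with UQCRH make its value uncertain.

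The start regions of the 3 nuclear genes past 1.5-fold are shown because they were the nuclear genes of the set with the largest ratios. Each run holds 250 bases before and 50 bases after the annotated start in RefSeq on GRCh38.p14, and capitals mark the letters CCGGAAG, on either strand, the core that ETS-family factors such as GABP bind.
NDUFA3, chr19:54102605-54102904, plus strand: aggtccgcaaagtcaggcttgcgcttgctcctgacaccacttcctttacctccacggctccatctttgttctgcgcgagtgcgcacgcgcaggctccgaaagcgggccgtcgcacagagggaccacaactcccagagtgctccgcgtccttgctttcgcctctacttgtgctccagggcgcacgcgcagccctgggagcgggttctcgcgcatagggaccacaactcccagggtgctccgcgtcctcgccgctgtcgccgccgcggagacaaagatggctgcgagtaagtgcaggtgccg
UQCR11, chr19:1605413-1605712, minus strand: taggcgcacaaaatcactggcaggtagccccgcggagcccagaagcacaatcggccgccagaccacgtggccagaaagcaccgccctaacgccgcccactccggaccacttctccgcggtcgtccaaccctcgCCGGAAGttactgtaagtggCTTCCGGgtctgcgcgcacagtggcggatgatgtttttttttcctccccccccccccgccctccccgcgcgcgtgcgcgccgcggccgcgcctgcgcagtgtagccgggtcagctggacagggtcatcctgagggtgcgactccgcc
UQCRQ, chr5:132866392-132866691, plus strand: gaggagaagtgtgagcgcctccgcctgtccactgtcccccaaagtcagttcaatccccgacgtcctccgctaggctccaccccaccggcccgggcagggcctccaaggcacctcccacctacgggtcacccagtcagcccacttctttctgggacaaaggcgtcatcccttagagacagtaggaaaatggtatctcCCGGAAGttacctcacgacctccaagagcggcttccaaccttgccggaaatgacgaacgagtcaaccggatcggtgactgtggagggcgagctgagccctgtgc
UQCR11 has 2 matches, on opposite strands, and UQCRQ has 1, while these letters are not in the NDUFA3 window. Of the 83 nuclear subunits, 66 had a RefSeq promoter entry by symbol, and 20 of those 66 (30.3%) held CCGGAAG or its reverse complement CTTCCGG, against 10.3% of all 35116 promoter entries of that length. The 66 genes had 78 entries, and a gene with several was counted where any of them held the letters. All promoters were counted entry by entry, so the 2 shares are not of quite the same kind. AAGATGGCG, part of the element that YY1 binds, or CGCCATCTT on the other strand, was in 9 of 66 (13.6%) against 1.75%. GCGCATGCG or CGCATGCGC, from the element of NRF1, a known activator of respiratory chain genes, was in 11 of 66 (16.7%) against 1.92%. TATAAA or TTTATA was in 7 of 66 (10.6%) against 11.5%. The NRF1 and YY1 elements were first searched in a form of 10 letters, found in 4 (6.06%) and 8 (12.1%) of the 66 genes, and were shortened to 9 letters after those counts were seen. The ETS and YY1 letters can overlap by AAG. A match describes a sequence, not a bound site.

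Complex IV, cytochrome c oxidase, had the highest nuclear median. Of its 17 nuclear genes 11 passed the floor, and these had a median log2 ratio of 0.34, with 8 higher and 0 lower. The nuclear sum was 6239 UPM in the control and 7940 UPM in 4B4 (log2 ratio 0.35), and the sum of its 3 mitochondrially encoded subunits was 50950 and 38801 UPM (log2 ratio -0.39). COX7C, a small membrane subunit with the highest nuclear level of the complex, was at 1092 and 1445 UPM (log2 ratio 0.40). COX6B1, which faces the intermembrane space near the cytochrome c site, was at 473 and 699 UPM (log2 ratio 0.56). COX7A2, the COX7A form of most tissues, was at 590 and 856 UPM (log2 ratio 0.54), and the zinc-binding subunit COX5B at 551 and 792 UPM (log2 ratio 0.52). These 4 genes were higher in 4B4 by 1.32-fold to 1.48-fold. COX4I1, the largest nuclear subunit and one that binds ATP, went the other way in sign only, at 744 and 715 UPM (log2 ratio -0.06). NDUFA4, long counted with complex I and now placed in complex IV, was at 714 and 841 UPM (log2 ratio 0.24), under the bound.

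The catalytic core of complex IV is encoded in the organelle, and its 3 genes did not have the same ratio. MT-CO3 was at 14149 UPM in the control and 8677 UPM in 4B4 (log2 ratio -0.71). MT-CO2, which takes electrons from cytochrome c, was at 20859 and 16586 UPM (log2 ratio -0.33), with a log2 ratio of -0.03 in cells of 20000 to 60000 UMIs. MT-CO1, which holds the oxygen-binding haem and copper, was at 15942 and 13538 UPM (log2 ratio -0.24), under the bound, and its log2 ratio was 0.12 in cells of 20000 to 60000 UMIs. MT-CO3 was thus at 1.63-fold lower in 4B4 and MT-CO1 at 1.18-fold lower, and in cells of 20000 to 60000 UMIs MT-CO3 was at -0.34 on the log2 scale. The sum of the 3 genes went from -0.39 over all kept cells to -0.06 in that window.

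Tissue isoforms of complex IV that replace a common form in muscle, lung or testis were near or at zero in both libraries. COX6A2 and COX7A1, the muscle forms, had 0 UMIs in either library, which allows at most 0.0236 UPM in the control and 0.0258 UPM in 4B4, while COX6A1 was at 506 and 638 UPM. COX4I2, the lung form, was at 0.141 and 0.163 UPM, and the testis forms COX8C and COX7B2 were at 0.149 and 0.232 UPM and at 0.141 and 0.0859 UPM. COX6B2, another testis form, was at 1.64 and 1.66 UPM. The common forms COX8A and COX7B were at 431 and 538 UPM and at 372 and 487 UPM (log2 ratios 0.32 and 0.39). NDUFA4L2, a hypoxia-induced relative of NDUFA4, was at 0.519 and 0.550 UPM, with counting intervals of 0.401 to 0.660 and 0.423 to 0.702 that overlap. COX7A2L, which helps to assemble supercomplexes, was at 202 and 216 UPM (log2 ratio 0.10). Both remaining genes under the floor, the ATP5MGL paralog and the non-coding NDUFA6-DT, were at 0.802 and 0.764 UPM and at 3.07 and 2.84 UPM.

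In complex V, the nuclear subunits again summed to a higher level in 4B4. All 17 passed the floor, 6 were higher and 0 lower, the median log2 ratio was 0.21, and the sum was 7027 UPM in the control and 8453 UPM in 4B4 (log2 ratio 0.27). The 5 accessory subunits of the membrane sector had a median of 0.43 with 3 higher (range 0.21 to 0.58), and the 4 peripheral stalk subunits a median of 0.26 with 2 higher (range -0.14 to 0.42). The 3 c-ring genes had a median of 0.10 with 0 higher, and the 5 genes of the catalytic head and central stalk a median of 0.08 with 1 higher (range 0.02 to 0.49). These ranges overlap, and the lowest ratio was that of ATP5PB, a peripheral stalk subunit, at 130.4 and 119 UPM (log2 ratio -0.14), looked up after the values were seen. ATP5MD, an accessory subunit where dimers form, was at 517 and 771 UPM (log2 ratio 0.58), and ATP5ME, another, at 284 and 386 UPM (log2 ratio 0.45). ATP5F1E, the epsilon subunit of the central stalk and the highest of the complex, was at 889 and 1249 UPM (log2 ratio 0.49). ATP5PF, a stalk subunit known as coupling factor 6, was at 777 and 951 UPM (log2 ratio 0.29). All 4 were higher in the 4B4 library past the 1.2-fold bound over all kept cells. With each cell weighing the same, ATP5PF was at 0.17 on the log2 scale, under the bound. The lowest log2 ratios over 10 settings were 0.46 for ATP5MD, 0.31 for ATP5ME and 0.36 for ATP5F1E.

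The c-ring, the rotor through which protons pass, is built from an identical protein encoded by 3 genes, and none of the 3 passed the bound. ATP5MC1 was at 296 and 303 UPM (log2 ratio 0.03), ATP5MC2 at 502 and 549 UPM (log2 ratio 0.13) and ATP5MC3 at 618 and 662 UPM (log2 ratio 0.10), so their order of levels was the same in both libraries. ATP5IF1, the inhibitor that blocks ATP hydrolysis, was at 190 and 205 UPM (log2 ratio 0.11). MT-ATP6, the organelle-encoded channel beside the rotor, was at 11542 UPM in the control and 7066 UPM in 4B4 (log2 ratio -0.71). MT-ATP8, read from the same mRNA, was at 360 and 277 UPM (log2 ratio -0.38), and its ratio was positive, at 0.14, in cells of 20000 to 60000 UMIs. Over all kept cells, the mitochondrially encoded UMIs per nuclear UMI of complex V were 1.69 in the control and 0.869 in 4B4. Nuclear UMIs of complex V thus outnumbered them in the 4B4 sum alone. The same quotient was 1.83 and 1.13 for complex I, 2.87 and 1.69 for complex III, and 8.17 and 4.89 for complex IV. Over all complexes together it depended on depth. In cells of 20000 to 40000 UMIs it was 3.50 in the control and 2.93 in 4B4, and in cells of 100000 UMIs or more 2.74 and 1.53. The quotients by complex are given over all kept cells alone, so the order within complex V may differ by depth.

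Assembly factors, which help to build the complexes and do not stay in them, showed no common direction. Of 12 in the set (NDUFAF1 to NDUFAF8 and SDHAF1 to SDHAF4) 1 was higher, 1 was lower and the median log2 ratio was 0.01. SDHAF4, which acts on the flavoprotein of complex II, was at 11.5 and 14.6 UPM (log2 ratio 0.34, counting interval 0.24 to 0.45). NDUFAF6, an assembly factor of complex I, was at 41.1 and 32.3 UPM (log2 ratio -0.35). These 2 genes, the only assembly factors past the bound, were named after their values were seen.

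Within the mitochondrially encoded UMIs, the make-up differed between the libraries, and this share does not depend on the library total. MT-CO2 took 23.3% of these UMIs in the control and 25.3% in 4B4, and MT-CO1 took 17.8% and 20.7%. MT-CO3 took 15.8% and 13.2%, MT-ATP6 12.9% and 10.8%, and MT-ND1 3.73% and 3.12%. MT-ND6 took 0.225% and 0.159%. MT-CYB, MT-ND2 and MT-ND5 kept nearly the same share, at 11.5% and 11.7%, 2.13% and 2.10%, and 1.08% and 1.09%. MT-ATP6 and MT-CO3, which adjoin with no tRNA gene between them, had log2 ratios of -0.71 and -0.71, and MT-CO1 and MT-CO2, which lie upstream, -0.24 and -0.33. Over 5 alternative choices of cells and weights the log2 ratio of the share ranged from 0.19 to 0.23 for MT-CO1, from -0.27 to -0.22 for MT-CO3, from -0.26 to -0.21 for MT-ATP6 and from -0.27 to -0.21 for MT-ND1. For MT-ND6 it ranged from -0.81 to -0.25, but its lower share in 4B4 was not seen by phase within a window of depth. In cells of 40000 to 100000 UMIs, a window chosen after seeing the data, its share in G1 cells was 0.154% in the control and 0.156% in 4B4. Its share in G2M cells of that window was 0.446% in the control and 0.521% in 4B4, the last from 41 cells.

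**Figure D2:**
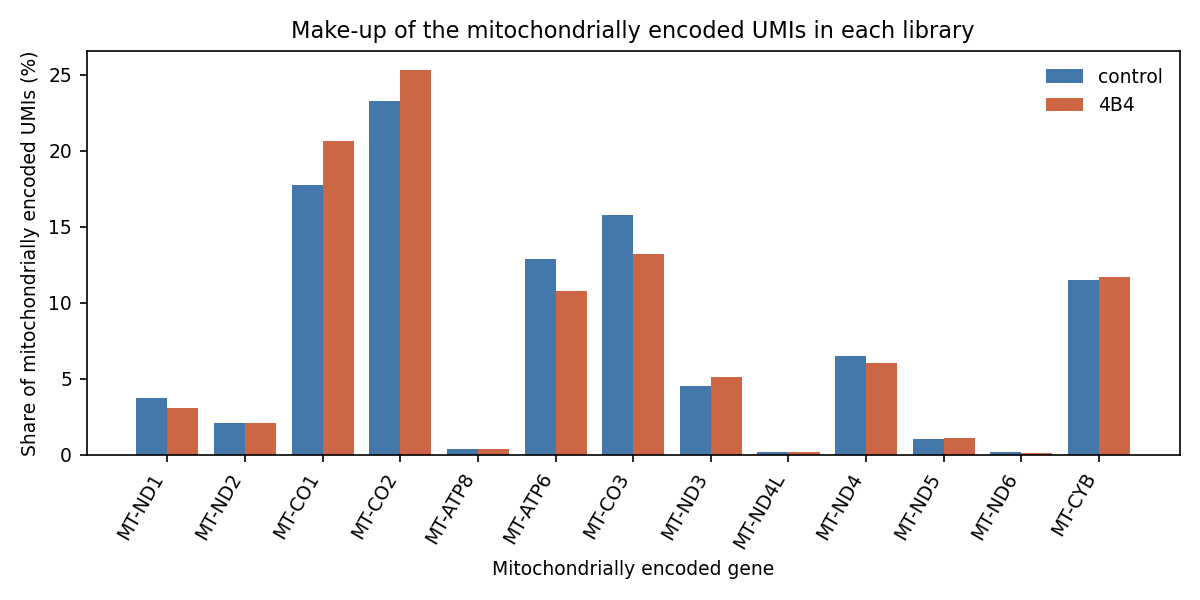
Bars give the share of all mitochondrially encoded UMIs (%) taken by each of the 13 genes, in the order they lie on the mitochondrial chromosome, for the control and 4B4 libraries. MT-CO1 and MT-CO2 have the higher bar in 4B4 (20.7% and 25.3%), and MT-ATP6 and MT-CO3 have the higher bar in the control (12.9% and 15.8%).

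By depth, the gap in mitochondrially encoded UMIs was widest in the deepest cells and next widest in those under 20000 UMIs. In cells of 20000 to 40000 UMIs these genes took 9.28% of UMIs in the control and 8.62% in 4B4, and in cells of 40000 to 60000 UMIs 8.83% and 8.30%. In cells of 60000 to 100000 UMIs the values were 8.47% and 7.87%. In cells of 100000 UMIs or more they were 7.63% in 42 control cells and 5.20% in 386 4B4 cells. Nuclear subunits, taken per 1000000 UMIs that were not mitochondrially encoded, were higher in 4B4 in each of these 4 strata, at 29181 and 32247 in the shallowest of them and at 30080 and 35862 in the deepest. Under 20000 UMIs the order of the nuclear subunits turned, with 31082 in 533 control cells and 19449 in 84 4B4 cells. Mitochondrially encoded genes took 10.3% of UMIs in those control cells and 8.22% in those 4B4 cells.

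**Figure D3:**
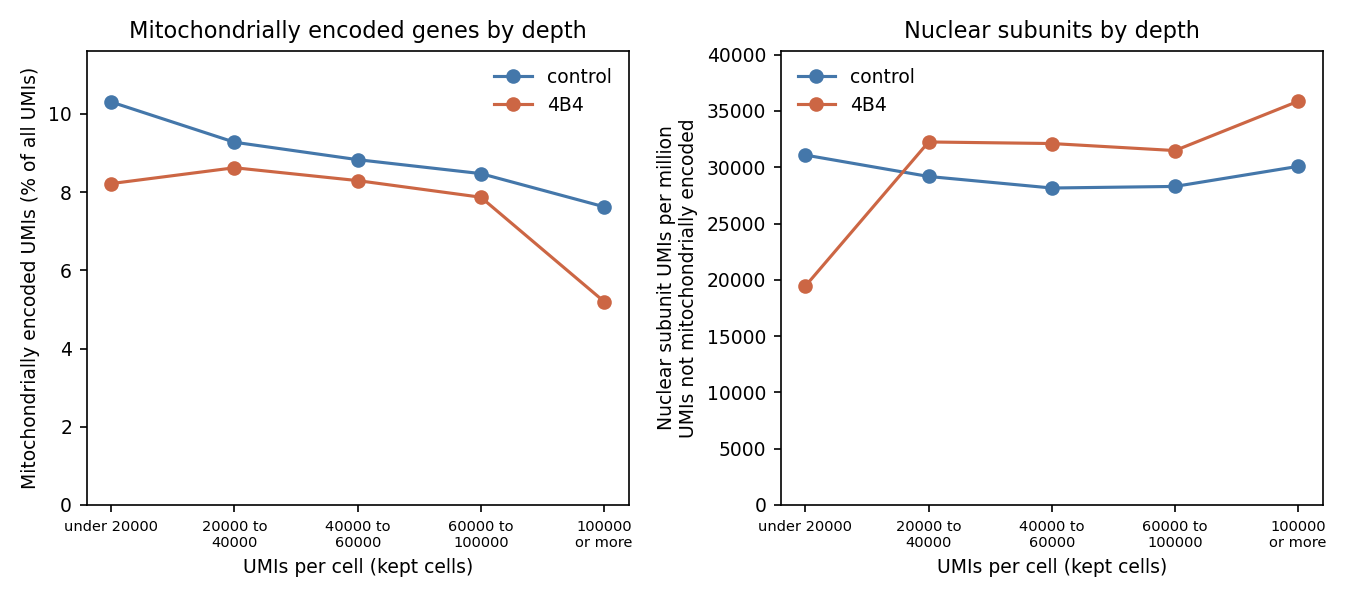
The left panel plots mitochondrially encoded UMIs as a percentage of all UMIs, and the right panel nuclear subunit UMIs per 1000000 other UMIs, against the depth of the cells in 5 strata; points are sums over the kept cells of a library. Control points lie above 4B4 points on the left in all strata, and 4B4 points lie above control points on the right except under 20000 UMIs.

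Cells at both ends of the range were more frequent in the 4B4 library. Cells with under 1% mitochondrially encoded UMIs were 40 of the control cells (1.18%, exact binomial interval 0.841% to 1.60%) and 103 of the 4B4 cells (7.44%, 6.11% to 8.95%). Those 103 cells were deep, with a median of 115999 UMIs, and carried a median of 4.45% of UMIs on nuclear subunits. The 40 control cells were not deep, with a median of 26166 UMIs, and carried a median of 3.82% on nuclear subunits. Cells with under 1% of UMIs on nuclear subunits were 15 (0.441%, 0.247% to 0.726%) and 73 (5.27%, 4.15% to 6.58%), and in these cells MALAT1, a nuclear non-coding RNA, was at 71662 and 77131 UPM against 12147 and 12606 UPM over all kept cells. The 15 and 73 cells with under 1% on nuclear subunits were shallow, with medians of 3215 UMIs in the control and 11824 UMIs in 4B4. Cells with at least 4% on nuclear subunits were 48 of the control and 173 of the 4B4 cells (1.41% and 12.5%). When only cells with at least 1% on both gene sets were used, an alternative chosen after these values were seen, the log2 ratio was 0.22 for the nuclear sum and -0.30 for the mitochondrially encoded sum, and the genes past 1.5-fold numbered 1 higher and 1 lower.

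The limit of 20% on mitochondrially encoded UMIs acts on the measured genes themselves, so the cells beyond it were looked at as well. Barcodes over that limit with at least 1000 genes numbered 46 in the control and 134 in 4B4. Nuclear subunits were at 14253 UPM in those control barcodes and 4719 UPM in those 4B4 barcodes, and MALAT1 was at 36838 and 84752 per 1000000 other UMIs. Barcodes under 1000 genes had a median mitochondrially encoded share of 94.6% in the control and 92.8% in 4B4. With every barcode used, the log2 ratio of the mitochondrially encoded sum was -0.30 and that of the nuclear sum 0.25.

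Across cells thinned to 17000 UMIs, the nuclear subunits of complexes I, III, IV and V varied together. The rank correlation of complex I with complex IV nuclear subunits was 0.774 over 3099 control cells and 0.865 over 1311 4B4 cells, and that of complex I with complex V was 0.780 and 0.876. Complex II, with a median of 6 UMIs per thinned cell, had correlations of 0.214 to 0.274 with the other complexes in the control and 0.337 to 0.377 in 4B4. Nuclear subunits and the mitochondrially encoded genes were correlated at -0.125 and -0.369. Within complex I the nuclear and mitochondrially encoded subunits were correlated at -0.408 and -0.567, and within complex IV at 0.139 and -0.197. MALAT1 correlated with the nuclear subunits at -0.598 and -0.770, and cytosolic ribosomal protein genes at 0.568 and 0.696. These are descriptions over cells that share a library and a fixed total, in which a gene set that takes more leaves less for others.

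By called cell cycle phase, MT-ND6 stood apart from the other mitochondrially encoded genes. Its share of mitochondrially encoded UMIs in the control was 0.163% in G1 cells, 0.262% in S cells and 0.425% in G2M cells, and in 4B4 it was 0.137%, 0.228% and 0.402%. From G1 to G2M that is 2.60-fold in the control and 2.94-fold in 4B4. In cells of 40000 to 100000 UMIs, a window chosen after seeing the data, the G1 and G2M shares were 0.154% and 0.446% in the control and 0.156% and 0.521% in 4B4, the last from 41 cells. The heavy-strand genes MT-ND2 and MT-ND3 also took larger shares in G2M cells, MT-ND2 at 1.99% and 2.63% in the control and 2.04% and 2.69% in 4B4, and MT-ND3 at 4.31% and 5.33% and at 5.04% and 6.29%. MT-CO1 took a smaller one, at 18.4% and 15.5% and at 20.9% and 17.7%. From G1 to G2M the share of MT-ND4L was 1.42-fold in the control and 1.29-fold in 4B4. For MT-ND1 it was 1.13-fold and 1.16-fold. The shares of MT-ATP6 (0.962-fold and 0.980-fold) and MT-CO2 (0.992-fold and 0.969-fold) were slightly smaller in G2M cells. Phase calls rest on transcripts alone, and the 4B4 library had 86 G2M cells against 614 in the control.

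**Figure D4:**
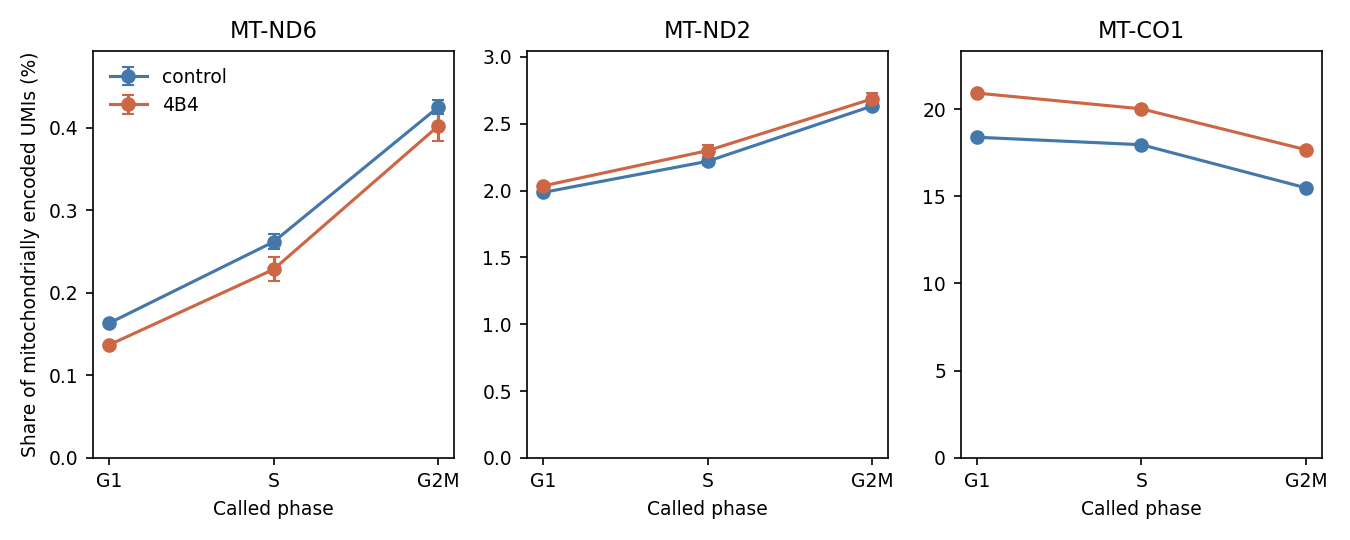
Each panel plots the share of mitochondrially encoded UMIs (%) taken by 1 gene in cells called G1, S or G2M, for each library, with exact binomial 95% intervals as bars; each y axis starts at 0 and has its own scale. MT-ND6 goes from 0.163% to 0.425% in the control and from 0.137% to 0.402% in 4B4, MT-ND2 is also higher in G2M cells, and MT-CO1 is lower.

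On the level scale, MT-ND6 was at 161 UPM in G1 and 301 UPM in G2M cells of the control and at 91.4 and 202 UPM in those of 4B4, whereas the mitochondrially encoded sum was 9.88% and 7.08% of UMIs in the control and 6.68% and 5.03% in 4B4. In the control, 1 of the 13 genes was higher in G2M cells by at least 1.2-fold and 9 were lower, where 28.8% of all 11583 genes tested were higher and 20% lower. In 4B4, 1 was higher and 7 were lower, where 28.0% of 11447 genes were higher and 10.9% lower. The gene that was higher was MT-ND6 in both libraries. Of the 77 nuclear subunits, 3 were higher and 9 lower in the control, and 2 were higher and 4 lower in 4B4. Called the same way in both libraries were SDHA, which was higher in G2M cells (60.2 and 73.2 UPM in the control, 62.9 and 76.2 in 4B4), and COX5B, UQCR11 and COX6B1, which were lower. COX5B was at 605 UPM in G1 and 439 UPM in G2M cells of the control and at 818 and 648 UPM in those of 4B4. These 4 were named after their values were seen, and in the G1 cells alone the log2 ratio of 4B4 over control was 0.27 for the nuclear sum and -0.57 for the mitochondrially encoded sum.

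Shorter transcripts had larger ratios among the nuclear subunits. Over the 77 subunits, the rank correlation of the log2 ratio with the longest annotated transcript was -0.396, and over 11197 other genes it was -0.116. The 25 subunits with a longest transcript under 1000 bases had a median log2 ratio of 0.29, beside 0.06 for 606 other genes of that length. The 10 subunits of 4000 bases or more had a median of 0.09, beside -0.03 for 4898 other genes. After the ratio of other genes of like length was subtracted, a step added after seeing the data, the median over the 77 subunits was 0.19, and 26 genes of the set were higher and 13 lower at 1.2-fold.

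**Figure D5:**
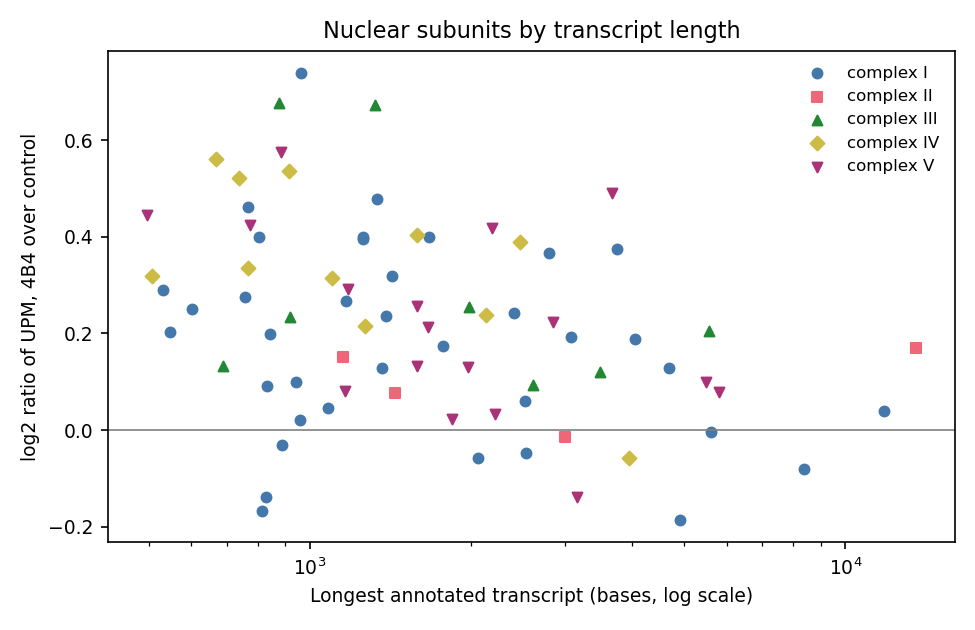
Each point is 1 of the 77 nuclear subunits, with its longest annotated transcript (bases, log scale) on the x axis, its log2 ratio of UPM (4B4 over control) on the y axis, and its complex given by colour and shape. The points lie lower toward the right, from a median of 0.29 under 1000 bases to 0.09 at 4000 bases or more.

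Other mitochondrial genes, from lists written for this comparison, mostly had medians near that of all genes. Of 43 assembly factors whose symbols lie outside the stems, 6 were higher and 2 lower (median 0.02), led by COX17, the copper chaperone of complex IV, at 228 and 353 UPM (log2 ratio 0.63). PET100 and COX20, also complex IV assembly factors, had log2 ratios of 0.51 and 0.46. Among 18 genes of electron carriers and coenzyme Q synthesis 1 was higher and 2 were lower (median -0.0026), and CYC1 was at 154 and 195 UPM (log2 ratio 0.34). DHODH, which feeds electrons from pyrimidine synthesis, was at 9.35 and 6.15 UPM (log2 ratio -0.60), and PDSS1, of the coenzyme Q side chain, had a log2 ratio of -0.40. In 28 genes of mitochondrial transcription and RNA processing 2 were higher and 2 lower (median -0.08). POLRMT, the mitochondrial RNA polymerase, was at 19.3 and 23.8 UPM (log2 ratio 0.30), SLIRP, which stabilizes mitochondrial mRNAs, at 469 and 580 UPM (log2 ratio 0.31), and PDE12, which removes their poly(A) tails, at 19.4 and 14.8 UPM (log2 ratio -0.39). Of 79 mitochondrial ribosomal proteins 8 were higher and 5 lower (median -0.0040), with MRPS6 at 0.63, MRPS36 at 0.42 and MRPS9 at -0.42 on the log2 scale.

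Import, matrix enzymes and protein quality control gave a like picture. Of 29 import and outer membrane genes 3 were higher and 1 was lower (median -0.0067), with log2 ratios of 0.45 for TIMM17B, 0.39 for TIMM8B and -0.39 for TOMM40. Of 24 genes of the tricarboxylic acid cycle and pyruvate entry 2 were higher and 2 lower (median 0.04), with IDH2, an isocitrate dehydrogenase, at 18.9 and 11.9 UPM (log2 ratio -0.66), PC at 0.45 and PDK2 at 0.37. The list of mitochondrial chaperones and proteases also held ATF5, which is neither. Of the 15 genes on that list 0 were higher and 0 lower (median -0.02), with ATF5 at -0.25, HSPD1 at -0.23 and AFG3L2 at 0.21. Of 12 antioxidant and carrier genes 0 were higher and 1 was lower (median -0.03): TXNRD2, a thioredoxin reductase, had a log2 ratio of -0.72, beside 0.26 for GPX4 and 0.25 for PRDX5. Cytosolic ribosomal proteins, as abundant short transcripts made outside the organelle, had 12 of 82 higher and 6 lower (median -0.01), with RPL13A at -0.55, RPS21 at 0.49 and RPSA at -0.46.

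Glycolysis and the regulators differed more. Of 17 glycolytic genes 10 were higher and 1 was lower (median 0.30), with ALDOA at 43.8 and 70.4 UPM (log2 ratio 0.68), ALDOC at 0.51 and ENO2 at 0.49. Of 12 regulators of mitochondrial gene expression 3 were higher and 4 lower (median 0.04). MYC, an activator of respiratory genes among many others, was at 11.9 and 6.70 UPM (log2 ratio -0.82), EPAS1 (HIF-2α) at 49.6 and 73.6 UPM (log2 ratio 0.57) and HIF1A at 194 and 269 UPM (log2 ratio 0.47). The largest ratios of the cell cycle lists were those of TYMS, RAD51AP1 and RRM2 for S phase (-1.69, -1.41 and -1.37) and AURKB, GTSE1 and CDCA3 for G2M (-1.97, -1.93 and -1.87). Treatment, depth per cell and the level of cell cycle genes all differ between the 2 libraries, and for the ratios over all kept cells they cannot be told apart.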

How the data were processed

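RNA of single cells was measured in 1 control and 1 4B4 library of HT1080 spheroids, with the 10x Genomics Chromium 3′ kit per the labels' protocols, and groups follow the treatment labels. The deposited matrices hold raw UMI counts per gene and barcode, which the authors produced; per the file headers the software was Cell Ranger 7.1.0. GRCh38 and Seurat 5.0.1 are named in the submitters' processing notes, without their role. The sources used here do not give the annotation release or say whether intronic reads were counted.

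Barcodes with at least 1000 detected genes and no more than 20% of UMIs on mitochondrially encoded genes were analysed, which left 3402 of 3642 control barcodes (127218114 UMIs) and 1385 of 1759 4B4 barcodes (116451080 UMIs). The libraries shared 2 barcodes. No doublet caller was run and none was removed as such. For each gene the UMIs of all analysed cells in a library were added up and set against that library's total (UPM), and ratios are 4B4 over control with no pseudocount, at a floor of 5 UPM in either library. A count of 0 was given the limit of 3 counts. Intervals at 95% are exact Poisson for levels, conditional Clopper-Pearson for ratios and Clopper-Pearson for shares. They cover counting error only, and say nothing of variation between cultures or libraries.

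For correlations and phases each cell was thinned to 17000 UMIs, which left out 303 control and 74 4B4 cells. Phases were called with scanpy 1.11.5 from 43 S and 54 G2M genes, on both libraries together. TMM factors came from edgeR 4.0.16 (R 4.3.3), and other steps used python 3.11.15, numpy 2.4.6 and scipy 1.17.1. All 114 gene IDs matched GENCODE release 29, used for positions and transcript lengths, while promoters came from RefSeq. The script was tested on simulated data.

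Genes were named by rule: every mitochondrially encoded gene, the 3 highest levels and the 3 largest ratios among the nuclear genes of each complex, every gene past 1.5-fold, tissue isoforms, and up to 3 genes of each other list. The genes and the 13 lists were chosen with earlier results of these data known. Alternatives tried are given in the closing section.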

Additional observations from a re-analysis of the deposited data

How the results depend on the processing

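No paired analysis was possible because each group is 1 library. The log2 ratio of the nuclear sum was 0.25 with no cell filter, 0.29 with a stricter filter (at least 2000 genes, at most 10% mitochondrially encoded UMIs), 0.17 in cells of 20000 to 60000 UMIs, 0.20 in thinned cells, 0.32 with TMM scaling, 0.23 with totals that leave out mitochondrially encoded UMIs, and 0.27 in G1 cells. In the same order, the mitochondrially encoded sum was at -0.30, -0.39, -0.11, -0.28, -0.41, -0.49 and -0.57. The nuclear median was 0.19 with no cell filter, 0.16 in cells of 20000 to 60000 UMIs, 0.15 in thinned cells, 0.26 with TMM scaling, 0.18 with those totals and 0.19 in G1 cells. With each cell weighing the same, 16 genes were higher at 1.2-fold, 0 were higher and 1 was lower at 1.5-fold, the nuclear sum was at 0.16, the mitochondrially encoded sum at -0.31 and the nuclear median at 0.12. The median over all genes was 0.062 in that setting, beside -0.0089 in the main one. It was 0.039 with TMM scaling, 0.027 in thinned cells, 0.004 in cells of 20000 to 60000 UMIs and -0.048 with totals that leave out mitochondrially encoded UMIs. In cells of 20000 to 60000 UMIs 7 genes were lower at 1.2-fold, and 1 was higher and 0 lower at 1.5-fold. Genes higher at 1.5-fold numbered 7 with the stricter filter and 5 with TMM scaling, and genes lower numbered 1 with no cell filter and 1 in thinned cells. The shares of all genes past 1.2-fold and 1.5-fold between the libraries were given for the main setting alone, so counts in other settings have none beside them. Removing a trend with transcript length or gene span, chosen after seeing the data, gave nuclear medians of 0.19 and 0.18. Keeping cells with at least 1% on both gene sets, also chosen later, gave sums of 0.22 and -0.30, a median of 0.16, and 1 gene higher and 1 lower at 1.5-fold. In cells of 20000 to 60000 UMIs, MT-ATP8 (0.14) and MT-ND3 (0.10) turned positive, as did MT-CO1 (0.12) and MT-ND4L (0.37), which had not passed 1.2-fold. Over 10 settings 62 of 77 nuclear subunits and 9 of 13 mitochondrially encoded genes kept their sign. MT-ND2 (-0.17), MT-CYB (-0.09), MT-ND5 (-0.05) and MT-CO2 (-0.03) no longer passed 1.2-fold in that window of depth. Why values moved was not tested.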
